A study of Mus musculus with 12 samples.

Results

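The genes examined were 54 components of the transforming growth factor beta (TGF-beta) and bone morphogenetic protein (BMP) pathways, out of 37583 gene IDs counted in RNA-seq libraries of Ocy454 cells. They were listed by name and role, with earlier results of these data known. The set held 5 TGF-beta and activin ligands, 12 BMP and GDF ligands, 12 receptors, 7 antagonists, 4 latent TGF-beta binding proteins, 10 SMADs and SMURFs and the 4 ID genes. Each of the 54 names matched a single gene ID in the mm9 annotation. Of these, 46 passed the filter on low counts and were tested, and 8 did not and are described by their counts.

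Ligands of this family are secreted dimers that bring together type I and type II receptor kinases. TGF-beta and activin receptors pass the signal to SMAD2 and SMAD3, BMP receptors pass it to SMAD1, SMAD5 and SMAD9, and SMAD4 is the partner of both groups. Antagonists such as Noggin and Gremlin bind BMP ligands outside the cell, latent TGF-beta binding proteins anchor the inactive TGF-beta complex in matrix, and SMAD6, SMAD7 and the SMURF ligases restrain the pathway inside the cell. The ID genes are well known direct targets of BMP signalling, and in bone both branches govern the cells that form and keep the matrix.

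Ocy454 is a line of osteocytes, the matrix-embedded cells that sense load, derived from mouse long bone. A single-cell subclone carrying a temperature-sensitive T antigen was kept at 37 °C for 14 days. Cells labelled as original (control) were compared with cells labelled as HDAC4 and HDAC5 deletion cells (DKO), each under static conditions or after 3 h of fluid flow shear stress (FFSS) on an orbiting platform, with 3 libraries in each of the 4 groups. Both deacetylases belong to class IIa, whose members repress transcription when nuclear. The methods describe control cells with Cas9 and an empty guide lentivirus, in the account of the FAK deletion clones. Whether the control cells of these libraries carried them is not stated. A single control population and a single DKO population were sequenced, so genotype and cell population cannot be told apart. The labels do not say whether replicates were separate cultures, so p-values measure only the spread between these samples.

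Between 17.6 and 19.2 M reads per library were assigned to genes, and 3 counts, the most that a count of 0 allows, corresponded to 0.146 to 0.178 CPM, counts scaled to the size of the library. Hdac4, which the annotation holds as 2 gene IDs, and Hdac5 were lower but not lost in the static libraries labelled DKO. Log2 fold changes were −0.85 and −0.39 for the Hdac4 IDs and −0.65 for Hdac5. Counts of the main Hdac4 ID were 458 to 550 in control static, 597 to 860 in control FFSS, and, in the libraries labelled DKO, 220 to 309 without and 214 to 250 with FFSS, and those of Hdac5 were 2421 to 2706, 1457 to 1755, 1461 to 1634 and 1553 to 1687. Under FFSS, Hdac5 did not pass between genotypes (log2 fold change 0.19, edgeR adjusted p = 0.0512). The libraries labelled control had low levels of most osteocyte markers. The summed level of the 6 genes Sost, Dmp1, Phex, Mepe, Pdpn and Fgf23 was 78.1 to 117 CPM in control static, 62.5 to 184 CPM in control FFSS, against 3602 to 3689 CPM in DKO static and, with FFSS, 3621 to 4025 CPM in DKO libraries. Of these, 4 reached 1 CPM in at least 1 library of each control group and 5 in at least 1 library of each DKO group. Fgf23 had at most 1 count in any library. Sost, Dmp1, Phex and Mepe were called higher in DKO cells in both conditions, while Pdpn was called lower (log2 fold changes −2.47 and −2.61). In the order control static, control FFSS, DKO static and DKO FFSS, 8 osteoblast markers summed to 19630 to 23670, 6458 to 19840, 58310 to 65730 and 60520 to 62600 CPM. In each group 7 of the 8 reached 1 CPM in at least 1 library. The 6 chondrocyte markers summed to 79.2 to 105, 52.2 to 84.2, 2361 to 2949 and 2005 to 2479 CPM, and the 5 haematopoietic markers to 24.1 to 28.6, 15.6 to 23.5, 2.92 to 3.29 and 3.04 to 3.51 CPM. Of the haematopoietic genes tested, Cd68 was lower in static DKO cells (−3.46) and Csf1r higher (1.17). Among chondrocyte markers, Col2a1 had 18, 19 and 173 counts in the static control libraries against 31798, 29518 and 37616 in the static DKO libraries. The 5 endothelial markers summed to at most 1.03 CPM in any library, the 5 adipocyte markers to at most 2.58 CPM and the 4 muscle markers to at most 10.5 CPM. The part that these marker shifts play in the genotype differences below was not tested. In bulk RNA, fewer cells of a type and less RNA per cell cannot be told apart. Replicate 1 of control FFSS stood apart from replicates 2 and 3, and several results for members that rest on it are given with and without it.

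Compared per kilobase of exon (RPKM), the most abundant members in control static cells were Id3, an inhibitor of basic helix-loop-helix factors, at 196 ± 3.59 RPKM (SD, n = 3), and Tgfb1, the main TGF-beta isoform of bone matrix, at 139 ± 3.87 RPKM. Id2 followed at 81.8 ± 2.14 RPKM. The highest BMP ligands were Bmp2 (57.8 ± 0.373 RPKM) and Bmp4 (55.7 ± 1.09 RPKM), both osteogenic, and these levels lay close together. Among receptors, the TGF-beta co-receptor Eng (27.2 ± 1.21 RPKM) and the type II receptor Tgfbr2 (20.7 ± 0.682 RPKM) led. Within the cell, the inhibitory Smad6 (39.4 ± 0.709 RPKM) and the ubiquitin ligase Smurf2 (35.7 ± 1.80 RPKM) exceeded Smad2 (30.3 ± 0.603 RPKM) and Smad4 (29.3 ± 0.314 RPKM). At the other end, the BMP antagonist Sostdc1 and Gdf10 had 0 counts in all 12 libraries, and Bmp3, Bmp5, Bmp7 and the BMP type I receptor Bmpr1b had at most 2 counts in any library. For these 6 genes no difference between groups was detectable at this depth.

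DKO cells were compared with control cells in each condition. Under static conditions, 24 of the 46 tested members were higher in DKO cells and 7 were lower (quasi-likelihood test of edgeR, with a threshold of 0.05 on the p adjusted by Benjamini-Hochberg). Over all 14904 genes tested, 27.0% were higher and 27.2% lower by the same rule. With a change of over 2-fold also required, 11 members were called higher and 3 lower, against 7.98% and 7.30% of all genes. Under FFSS, 24 members were higher and 9 lower, where 27.0% and 29.6% of all genes were. Over 2-fold, 14 were higher and 3 lower, against 8.25% and 8.96% of all genes. Without replicate 1 of control FFSS, 15 were higher, with Tgfb1 added, and 1, Inhba, was lower, where 20.1% of all genes were called, and the median log2 fold change of the members was 0.48. The median log2 fold change of the tested members was 0.39 in static and 0.34 in FFSS cells, and that of all genes was 0.01 and −0.05.

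**Figure D1:**
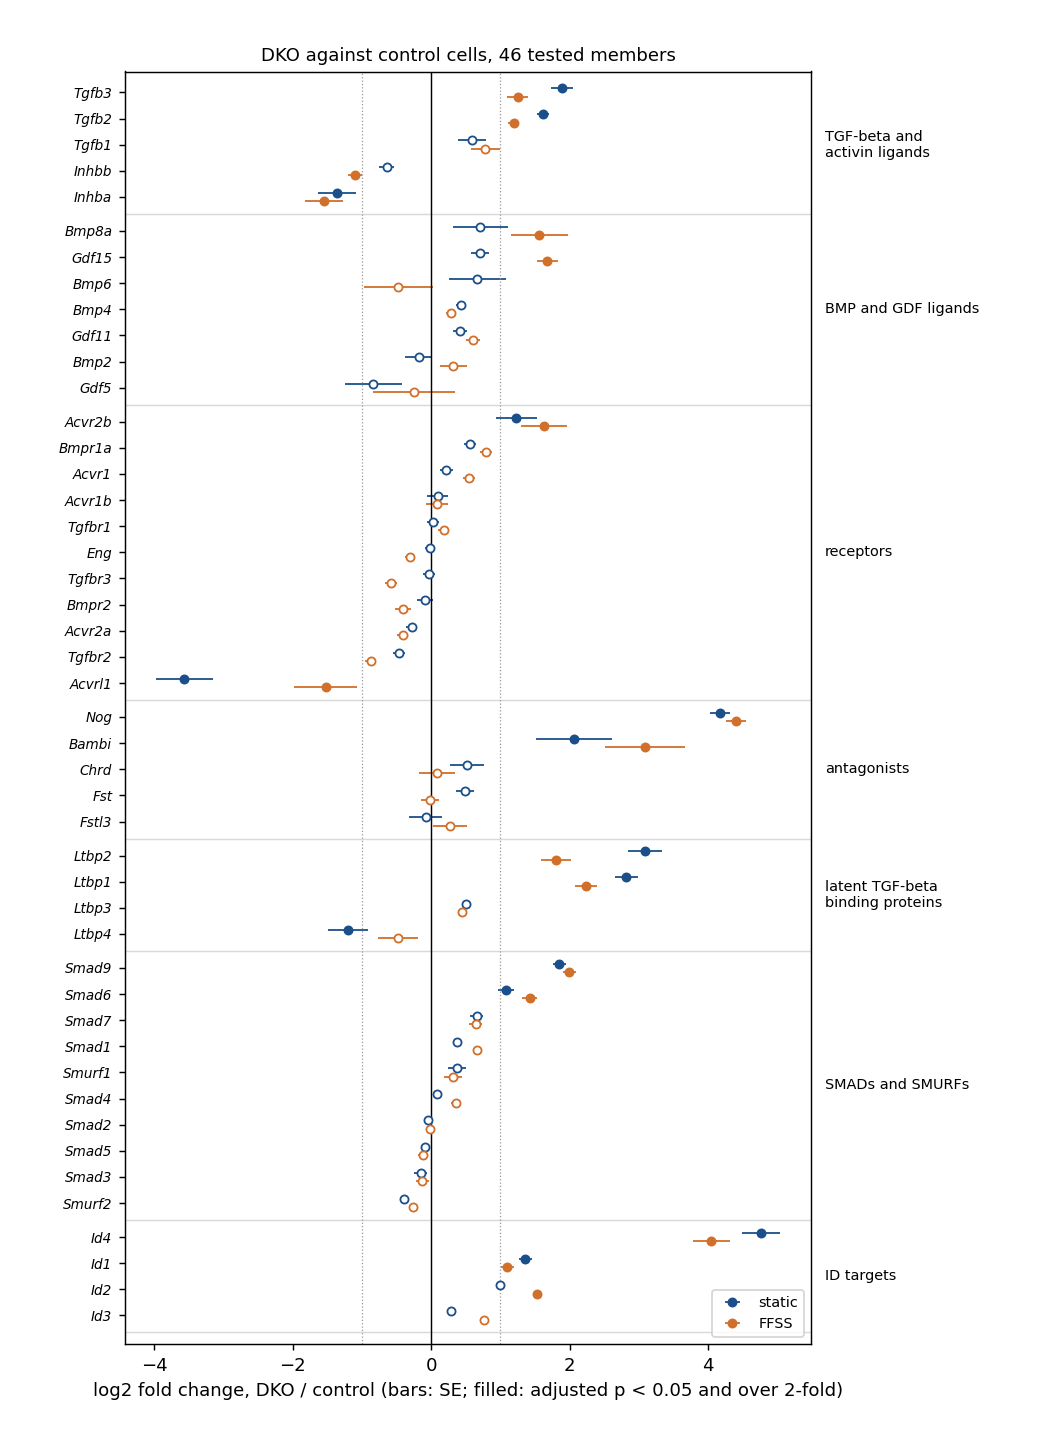
Log2 fold change between DKO and control cells (horizontal axis) of the 46 tested members, grouped by role, in static (blue) and FFSS (orange) cells. Points are edgeR estimates, bars are standard errors, and filled points passed an adjusted p of 0.05 with a change of over 2-fold (dotted lines); Nog, Id4, Ltbp1, Ltbp2 and Bambi lie farthest to the right and Acvrl1 farthest to the left.

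Among the TGF-beta and activin ligands, all 5 differed between genotypes in static cells, where 54.2% of all genes passed, the TGF-beta isoforms upward and the activin subunits downward. Tgfb2 (ENSMUSG00000039239, mm9 chromosome 1, 188447065 to 188529871, minus strand), which acts in skeletal development, had 2293, 2221 and 2219 counts in the static control libraries against 6426, 6428 and 6745 in the static DKO libraries. Every DKO library lay above every control library, and the log2 fold change was 1.61 ± 0.08 (SE, adjusted p = 2.35e-09 by edgeR). Under FFSS its counts were 2050, 2766 and 2632 in control libraries and 5300, 4941 and 4640 in DKO libraries, a log2 fold change of 1.19 ± 0.08 (SE, adjusted p = 3.72e-08 by edgeR). Tgfb3, the third isoform, rose from 759, 856 and 902 counts in control static to 2921, 2948 and 2986 in DKO static libraries. The groups did not overlap, and the log2 fold change was 1.88 ± 0.16 (SE, adjusted p = 1.5e-06 by edgeR). With FFSS, the control libraries held 1029, 1594 and 1875 and the DKO libraries 3312, 3017 and 3008 counts of Tgfb3, and the log2 fold change was 1.25 ± 0.15 (SE, adjusted p = 3.33e-05 by edgeR). Per length, Tgfb1 remained the most abundant isoform, with 209 ± 13.3 RPKM in DKO static cells against 74.4 ± 2.58 for Tgfb2 and 48.1 ± 0.812 for Tgfb3 (SD, n = 3). Tgfb1 itself was higher in DKO static cells by a log2 fold change of 0.59 ± 0.20 (SE, adjusted p = 0.0318 by edgeR), under the 2-fold limit.

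Inhba and Inhbb encode the beta subunits of activin A and activin B. Inhba had 687, 648 and 611 counts in the static control libraries against 240, 242 and 237 in the static DKO libraries. The DKO libraries were all lower, with a log2 fold change of −1.37 ± 0.27 (SE, adjusted p = 0.00166 by edgeR). In control FFSS cells the counts of Inhba spread from 420 in replicate 1 to 1132 and 868 in replicates 2 and 3, while DKO FFSS libraries held 242, 207 and 270, a log2 fold change of −1.55 ± 0.27 (SE, adjusted p = 0.000672 by edgeR). Inhbb had 1173, 1320 and 1386 counts in the static control libraries against 745, 784 and 835 in the static DKO libraries. It was lower in every DKO library, by a log2 fold change of −0.64 ± 0.10 (SE, adjusted p = 0.00012 by edgeR), short of 2-fold. Under FFSS, Inhbb counts were 2226, 1731 and 1846 in control libraries and 864, 705 and 819 in DKO libraries, and the gene was called (log2 fold change −1.10 ± 0.10, SE, adjusted p = 7.69e-07 by edgeR). Without replicate 1 of control FFSS it was no longer over 2-fold.

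Among the BMP and GDF ligands in static cells, 3 of the 7 tested were higher in DKO cells and 4 did not pass, where 27.0% of all genes were higher and 27.2% lower. The changes of Bmp4 (log2 fold change 0.43), Gdf11 (0.41) and Gdf15 (0.70) were all under 2-fold. Bmp2 did not pass in either condition, with log2 fold changes of −0.18 in static and 0.32 in FFSS cells. Without replicate 1 of control FFSS it passed in both, as lower in static (−0.18) and higher in FFSS cells (0.66 ± 0.06, SE, adjusted p = 8.14e-11 by edgeR). Gdf15, a distant family member induced by cell stress, had 65, 72 and 62 counts in static and 32, 27 and 35 in FFSS libraries of control cells, against 99, 107 and 103 and 93, 79 and 93 in those of DKO cells. Its 4 groups did not overlap, though the DKO static and FFSS values nearly met. It was called higher in DKO cells under FFSS (log2 fold change 1.68 ± 0.15, SE, adjusted p = 3.9e-07 by edgeR). Bmp8a, another BMP ligand, stood at 30.3, 26.8 and 32.3 CPM in static and 30.0, 8.40 and 8.81 CPM in FFSS libraries of control cells, and at 42.4, 52.0 and 52.1 and 50.5, 42.2 and 46.1 CPM in those of DKO cells. Replicate 1 of control FFSS matched the static control level of this ligand, and replicates 2 and 3 were far below it. The log2 fold change under FFSS was 1.56 ± 0.42 (SE, adjusted p = 0.0104 by edgeR) and became 2.43 without that replicate.

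Gdf6, a BMP-type ligand of joints and skeletal borders, was removed by the filter because it was nearly absent from DKO cells. Control cells had 14, 14 and 14 counts in static and 6, 24 and 34 in FFSS libraries, and DKO cells 1, 0 and 0 in static and 0, 0 and 1 in FFSS libraries. Every control library lay above every DKO library. The ratio of the summed and scaled counts, control over DKO, was 40.0 (95% exact interval 6.80 to 1620) in static cells and 56.2 (9.72 to 2250) under FFSS, intervals that cover counting error only.

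The latent TGF-beta binding proteins tether latent TGF-beta to the extracellular matrix. Ltbp1 (ENSMUSG00000001870, mm9 chromosome 17, 75404908 to 75791852, plus strand) had 1222, 1302 and 1389 counts in the static control libraries against 8637, 9063 and 8613 in the static DKO libraries. The groups were far apart, at 68.5 ± 4.30 and 484 ± 12.03 CPM (SD, n = 3 each), with a log2 fold change of 2.82 ± 0.16 (SE, adjusted p = 7.1e-08 by edgeR). Under FFSS the libraries held 1270, 2303 and 2135 counts in control and 8345, 7313 and 7766 in DKO cells, a log2 fold change of 2.23 ± 0.16 (SE, adjusted p = 3.87e-07 by edgeR). Ltbp2, a relative that does not bind TGF-beta, had 122, 120 and 114 counts in static and 194, 439 and 453 in FFSS libraries of control cells, against 924, 980 and 975 and 1095, 1059 and 1159 in those of DKO cells. Its levels rose in that order of groups with no overlap between any of them. The log2 fold change between genotypes was 3.08 ± 0.24 (SE, adjusted p = 1.36e-06 by edgeR) in static and 1.80 ± 0.22 (SE, adjusted p = 3.62e-05 by edgeR) in FFSS cells. Ltbp3 was modestly higher in DKO cells, by log2 fold changes of 0.51 in static and 0.44 in FFSS cells, both past the adjusted p threshold.

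Ltbp4 was the member of this group that was lower in DKO static cells. Static libraries held 1662, 1658 and 1678 counts in control and 738, 638 and 701 in DKO cells, a log2 fold change of −1.20 ± 0.29 (SE, adjusted p = 0.00563 by edgeR). Under FFSS, the control libraries held 1437, 625 and 648 counts and the DKO libraries 622, 541 and 561, and the difference did not pass (log2 fold change −0.48 ± 0.29, SE, adjusted p = 0.195 by edgeR). Scaled by library totals alone, this difference passed as lower in DKO cells (−0.65). Replicates 2 and 3 of control FFSS were already near the DKO level, and without replicate 1 the log2 fold change was 0.06 (edgeR adjusted p = 0.476).

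Among the tested members, the antagonist Nog had the largest rise outside the ID genes in static cells and the largest of all under FFSS. Nog (ENSMUSG00000048616, mm9 chromosome 11, 89161952 to 89163873, minus strand), which encodes the BMP-binding protein Noggin, had 33, 34 and 37 counts in the static control libraries against 586, 521 and 679 in the static DKO libraries. Control FFSS libraries held 24, 35 and 39 and DKO FFSS libraries 664, 572 and 589 counts. Levels were 1.82 ± 0.111 CPM in static control cells and 32.9 ± 4.59 CPM in static DKO cells (SD, n = 3 each). In either condition all DKO libraries were more than 10-fold above all control libraries, with log2 fold changes of 4.17 ± 0.15 (SE, adjusted p = 7.58e-11 by edgeR) and 4.40 ± 0.15 (SE, adjusted p = 4.45e-11 by edgeR). Grem1, which encodes the BMP antagonist Gremlin, was removed by the filter because control libraries were at or near 0. It had 0, 0 and 3 counts in static and 0, 3 and 0 in FFSS libraries of control cells, against 230, 162 and 98 and 98, 146 and 116 in those of DKO cells. The ratio of DKO to control scaled counts was 171 (95% exact interval 58.3 to 834) in static and 137 (46.4 to 666) in FFSS cells.

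Bambi, a pseudoreceptor without a kinase that dampens signalling, had 1337, 1171 and 1347 counts in static and 1284, 269 and 228 in FFSS libraries of control cells, against 5255, 4960 and 5189 and 4806, 4391 and 4270 in those of DKO cells. All DKO libraries lay above all control libraries. The log2 fold change was 2.07 ± 0.55 (SE, adjusted p = 0.0108 by edgeR) in static and 3.09 ± 0.58 (SE, adjusted p = 0.00157 by edgeR) in FFSS cells, and the latter was 4.38 without replicate 1 of control FFSS. Over the alternative fits the static value of Bambi ranged from 1.99 to 3.31. The activin-binding Fst was higher in DKO static cells (log2 fold change 0.49, edgeR adjusted p = 0.00648). Under FFSS it did not pass (−0.02), and without replicate 1 of control FFSS it was lower in DKO cells (−0.19, edgeR adjusted p = 0.00381). Fstl3 and the BMP-binding Chrd did not pass in either condition, with log2 fold changes between −0.08 and 0.52.

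**Figure D2:**
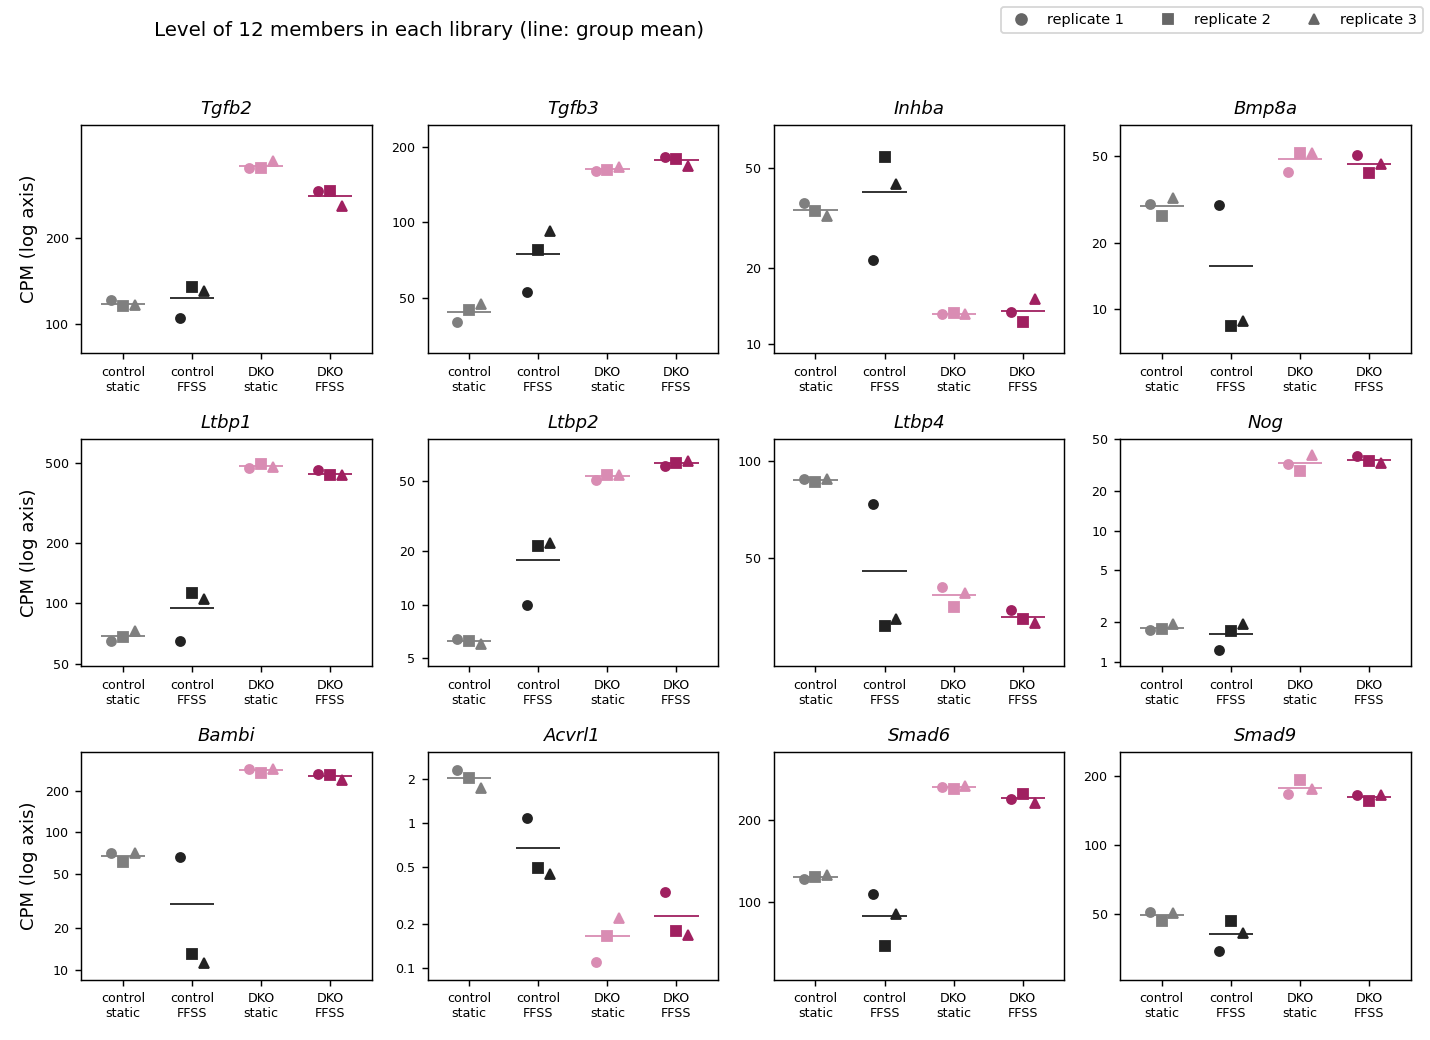
Level in CPM (vertical axis, log scale, differing between panels) of 12 members in each of the 12 libraries, with replicates 1, 2 and 3 as circle, square and triangle and a line at the group mean. For Nog, Ltbp1, Tgfb2, Smad6 and Smad9 the DKO libraries sit above all control libraries; for Bambi, Bmp8a and Ltbp4 replicate 1 of control FFSS sits near the static controls and replicates 2 and 3 fall below it.

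Of the 11 receptors tested in static cells, 3 were higher, 3 were lower and 5 did not pass, near the 27.0% and 27.2% of all genes. Under FFSS 3 were higher and 6 lower, of which 5 were under 2-fold, against 27.0% and 29.6% of all genes. Acvrl1 encodes ALK1, a type I receptor known from endothelium that binds BMP9 and BMP10. It had 44, 39 and 33 counts in the static control libraries against 2, 3 and 4 in the static DKO libraries. This was the largest fall among the tested members (log2 fold change −3.57 ± 0.41, SE, adjusted p = 4.96e-06 by edgeR), and both groups were low, at 2.03 ± 0.294 and 0.166 ± 0.0561 CPM (SD, n = 3 each). The ratio of control to DKO scaled counts was 12.3 (95% exact interval 6.25 to 27.5). Under FFSS its counts were 21, 10 and 9 in control libraries and 6, 3 and 3 in DKO libraries, a log2 fold change of −1.53 ± 0.46 (SE, adjusted p = 0.011 by edgeR). Without replicate 1 of control FFSS that difference was −1.02 and did not pass (edgeR adjusted p = 0.0712). Acvr2b, an activin type II receptor, had 13, 17 and 16 counts in static and 16, 7 and 5 in FFSS libraries of control cells, against 32, 39 and 32 and 28, 26 and 23 in those of DKO cells. It was higher in every DKO library, by log2 fold changes of 1.23 ± 0.30 (SE, adjusted p = 0.00288 by edgeR) in static and 1.63 ± 0.34 (SE, adjusted p = 0.000856 by edgeR) in FFSS cells. Without replicate 1 of control FFSS the latter was 2.28, and over the alternative fits the static value ranged from 1.13 to 2.01.

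The abundant receptors stayed within 2-fold of control, except for Tgfbr2 under FFSS when scaled by library totals alone. The BMP type I receptor Bmpr1a was higher in DKO static cells (124 ± 3.29 CPM in control and 183 ± 20.9 CPM in DKO; log2 fold change 0.56, edgeR adjusted p = 8.24e-05), and the TGF-beta receptor Tgfbr2 was lower (167 ± 5.51 and 121 ± 3.05 CPM; log2 fold change −0.47, edgeR adjusted p = 0.000313). Under FFSS, Tgfbr2 was lower by a log2 fold change of −0.88, and of −1.08 by library totals alone. Tgfbr1, its type I partner, did not pass in either condition, with log2 fold changes of 0.03 in static and 0.18 in FFSS cells. Tgfbr3, the co-receptor betaglycan, had 666, 652 and 612 counts in static and 755, 976 and 993 in FFSS libraries of control cells, against 601, 619 and 580 and 547, 513 and 534 in those of DKO cells. The static groups overlapped in CPM, whereas under FFSS each DKO library was below each control library (log2 fold change −0.58 ± 0.08, SE, adjusted p = 3.7e-05 by edgeR).

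Among SMADs and SMURFs, the receptor-regulated Smad2, Smad3 and Smad5 did not pass between genotypes in either condition, with log2 fold changes from −0.15 to −0.01. Scaled by library totals alone, all 3 passed as lower under FFSS, at log2 fold changes of −0.21, −0.32 and −0.32, and Smad3 and Smad5 also in static cells (−0.24 and −0.17). The members called were Smad9, which encodes a BMP-branch SMAD, and the inhibitor Smad6. Smad9 (ENSMUSG00000027796, mm9 chromosome 3, 54559504 to 54605179, plus strand) had 970, 897 and 962 counts in static and 671, 957 and 840 in FFSS libraries of control cells, against 3046, 3498 and 3163 and 3012, 2635 and 2967 in those of DKO cells. Every DKO library stood above every control library, with log2 fold changes of 1.85 ± 0.09 (SE, adjusted p = 1.57e-09 by edgeR) in static and 1.99 ± 0.09 (SE, adjusted p = 8.81e-10 by edgeR) in FFSS cells. Smad6 had 2296, 2374 and 2390 counts in static and 2087, 1423 and 1831 in FFSS libraries of control cells, against 4759, 4712 and 4765 and 4299, 4181 and 4107 in those of DKO cells. It was higher in every DKO library, with log2 fold changes of 1.08 ± 0.11 (SE, adjusted p = 3.16e-06 by edgeR) and 1.42 ± 0.11 (SE, adjusted p = 3e-07 by edgeR). By library totals alone the static value was 0.9991, just under the 2-fold limit. Smad1 (0.38 in static and 0.67 in FFSS cells) and the inhibitor Smad7 (0.66 and 0.64) were higher by log2 fold changes short of 1, and the ligase Smurf2 was lower (−0.39 and −0.27), each past the adjusted p threshold in both conditions. Smurf1 passed as higher in static cells only, though not by library totals alone, and Smad4 under FFSS only, both under 2-fold. In each condition 5 of the 10 were higher and 1 lower, against 27.0% and 27.2% of all genes in static and 27.0% and 29.6% in FFSS cells.

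The ID genes encode helix-loop-helix proteins that lack a DNA-binding domain and hold back differentiation factors. All 4 were higher in DKO cells in both conditions, where 27.0% of all genes were in each. Id4 (ENSMUSG00000021379, mm9 chromosome 13, 48356796 to 48359405, plus strand) had 17, 6 and 15 counts in static and 22, 22 and 9 in FFSS libraries of control cells, against 377, 277 and 338 and 291, 259 and 224 in those of DKO cells. It went from a low to a moderate level, with log2 fold changes of 4.76 ± 0.28 (SE, adjusted p = 8.84e-09 by edgeR) in static and 4.05 ± 0.26 (SE, adjusted p = 2.86e-08 by edgeR) in FFSS cells, and 4.76 was the largest value among the tested members. Id1 had 323, 389 and 359 counts in static and 426, 554 and 521 in FFSS libraries of control cells, against 935, 781 and 904 and 1013, 903 and 906 in those of DKO cells. Its groups were separate between genotypes, with log2 fold changes of 1.36 ± 0.10 (SE, adjusted p = 5.24e-08 by edgeR) and 1.10 ± 0.10 (SE, adjusted p = 3.41e-07 by edgeR).

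Id2 had 1939, 1963 and 2034 counts in static and 1344, 1480 and 1366 in FFSS libraries of control cells, against 3782, 3750 and 3775 and 3619, 3472 and 3547 in those of DKO cells. The replicates were tight, and the log2 fold change was 1.00 ± 0.05 (SE, adjusted p = 1.21e-09 by edgeR) in static cells, a fold of 1.999 that just missed the 2-fold limit. Under FFSS it was 1.53 ± 0.05 (SE, adjusted p = 3.14e-11 by edgeR). Id3, the most abundant, had 6537, 6694 and 6799 counts in static and 5595, 5246 and 5471 in FFSS libraries of control cells, against 7848, 7826 and 7661 and 8353, 7728 and 8215 in those of DKO cells. The DKO libraries were all higher but by less than for the other ID genes, at log2 fold changes of 0.29 ± 0.05 (SE, adjusted p = 0.000278 by edgeR) and 0.76 ± 0.05 (SE, adjusted p = 3.16e-08 by edgeR). Per length, Id3 stood at 240 ± 1.72, Id2 at 164 ± 1.54, Id1 at 41.5 ± 3.996 and Id4 at 10.99 ± 1.69 RPKM in DKO static cells (SD, n = 3).

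**Figure D3:**
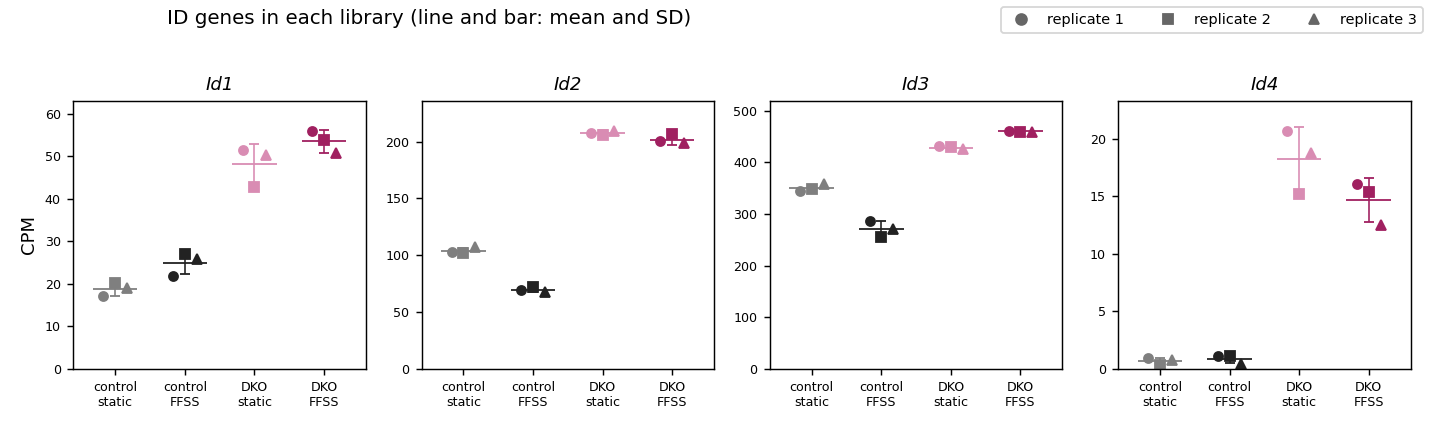
Level in CPM (vertical axis from 0, scale differing between panels) of Id1 to Id4 in each of the 12 libraries, with lines and bars for the group mean and SD (n = 3). Id4 is below 1.2 CPM in all 6 control libraries and above 12 CPM in all 6 DKO libraries; Id2 and Id3 fall with FFSS in control cells and not in DKO cells.

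Promoter sequences of the ID genes and of both called SMADs are shown because these genes rose together and BMP-responsive promoters are known to hold SMAD-binding letters. The windows run from 250 bases before to 50 bases after the annotated start (RefSeq, GRCm38.p6), and 38 of the 54 members were found in that table. Letters searched on both strands were GGCGCC, a motif bound by BMP-branch SMADs, and CAGAC, the core SMAD element, whose complement reads GTCTG. The palindrome GTCTAGAC was added after the Smad6 window had been seen. Its match there was thus fixed in advance, and its share of all promoters is no measure of how rare that match is. Of 32851 promoters of this length, 11.9% hold GGCGCC, 49.6% hold CAGAC or its complement and 0.213% hold GTCTAGAC. Of the 47 promoters of the 38 members found, 15, 25 and 1 hold them. Matches are in capitals, 5′ to 3′ on the strand of the gene.
Id2, chr12:25096043-25096342, minus strand: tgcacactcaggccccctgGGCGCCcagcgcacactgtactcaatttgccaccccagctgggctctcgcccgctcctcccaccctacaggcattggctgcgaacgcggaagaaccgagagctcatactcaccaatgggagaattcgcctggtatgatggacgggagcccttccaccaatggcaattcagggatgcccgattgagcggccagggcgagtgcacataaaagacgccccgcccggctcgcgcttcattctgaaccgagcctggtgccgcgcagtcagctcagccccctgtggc
Id3, chr4:136143572-136143871, plus strand: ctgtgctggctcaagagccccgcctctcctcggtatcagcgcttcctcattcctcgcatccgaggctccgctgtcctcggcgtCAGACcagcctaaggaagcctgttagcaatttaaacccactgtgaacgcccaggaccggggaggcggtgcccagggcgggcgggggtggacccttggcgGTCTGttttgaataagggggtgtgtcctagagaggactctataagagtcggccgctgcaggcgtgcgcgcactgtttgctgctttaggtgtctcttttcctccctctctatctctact
Id4, chr13:48260866-48261165, plus strand: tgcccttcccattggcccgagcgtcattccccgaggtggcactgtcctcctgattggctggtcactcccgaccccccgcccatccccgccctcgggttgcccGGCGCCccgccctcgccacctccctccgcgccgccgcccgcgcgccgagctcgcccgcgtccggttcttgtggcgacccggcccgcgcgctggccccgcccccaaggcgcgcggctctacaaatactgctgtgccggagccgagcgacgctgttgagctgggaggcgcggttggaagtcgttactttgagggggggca
Smad6, chr9:64022010-64022309, minus strand: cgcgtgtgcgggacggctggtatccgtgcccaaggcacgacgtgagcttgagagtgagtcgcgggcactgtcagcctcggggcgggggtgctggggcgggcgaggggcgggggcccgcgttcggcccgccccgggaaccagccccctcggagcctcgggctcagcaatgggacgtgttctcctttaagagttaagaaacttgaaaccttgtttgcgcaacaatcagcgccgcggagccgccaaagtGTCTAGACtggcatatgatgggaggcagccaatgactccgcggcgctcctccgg
Smad9, chr3:54755332-54755631, plus strand: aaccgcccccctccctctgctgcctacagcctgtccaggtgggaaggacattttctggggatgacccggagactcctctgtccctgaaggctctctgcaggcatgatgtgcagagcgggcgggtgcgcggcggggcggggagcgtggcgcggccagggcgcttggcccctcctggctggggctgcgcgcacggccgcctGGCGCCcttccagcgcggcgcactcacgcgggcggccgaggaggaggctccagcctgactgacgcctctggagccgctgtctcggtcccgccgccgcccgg
GGCGCC begins 231 bases before the start of Id2, 148 bases before that of Id4 and 51 bases before that of Smad9. In Id3 there is CAGAC at 167 bases before the start and its complement at 68 bases before it, and in Smad6 the palindrome begins 4 bases before the start. The windows are rich in G and C, from 60.0% in Id3 to 73.7% in Smad9, against a median of 52.7% over all promoters. The MEF2 motif, bound by factors that class IIa deacetylases hold in check, is in none of these windows and in 3.19% of all promoters. Such matches describe the letters in these windows and not binding, and Id1 and Nog were not in the table. The part of SMAD binding in the genotype differences was not tested.

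The response to 3 h of FFSS was compared next. In control cells, 9 of the 46 members were higher and 14 lower under FFSS (edgeR, adjusted p under 0.05), against 17.7% and 18.1% of all genes. Scaled by library totals alone, which moves the median of all genes from 0.01 to 0.13, the split was 12 higher and 10 lower. Over 2-fold, 1 member was higher and 3 were lower, against 3.96% and 1.97% of all genes. The member called higher was Ltbp2, whose counts are given above, at a log2 fold change of 1.53 ± 0.25 (SE, adjusted p = 0.00137 by edgeR). Replicate 1, with 194 counts, lay between the static libraries and the 439 and 453 counts of replicates 2 and 3. Those called lower were Gdf15 (log2 fold change −1.15 ± 0.15, SE, adjusted p = 0.000134 by edgeR), Acvrl1 (−1.60 ± 0.31, SE, adjusted p = 0.00187 by edgeR) and Gdf5 (−1.87 ± 0.46, SE, adjusted p = 0.00702 by edgeR). Gdf5, a ligand of joint and cartilage development, had 27, 21 and 33 counts in static and 16, 4 and 3 in FFSS libraries of control cells, against 17, 9 and 17 and 7, 5 and 5 in those of DKO cells. All its values were low, and the fall was not past the threshold when only the 6 control libraries were fitted.

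Smaller changes in control cells ran through several roles. Tgfb3 (log2 fold change 0.76), Inhbb (0.51), Fst (0.56) and Ltbp1 (0.46) were higher under FFSS, as were the receptors Tgfbr3 (0.42), Tgfbr2 (0.31) and Eng (0.26). Lower were Bmp2 (−0.70), Gdf11 (−0.41), Bmpr1a (−0.30) and Ltbp4 (−0.95), and among intracellular components Smad6 (−0.47), Smad4 (−0.29), Smad9 (−0.28), Smurf2 (−0.23) and Smad1 (−0.21), where 5 of the 10 were lower, against 18.1% of all genes. Scaled by library totals alone, Bmpr1a, Smad1, Smad9 and Smurf2 did not pass. Fitted on the 6 control libraries alone, 11 of the 46 members passed (16.5% of all genes did): Ltbp2, Tgfb3, Inhbb, Tgfbr3 and Id1 as higher and Acvrl1, Gdf15, Gdf11, Smad4, Id2 and Id3 as lower. Of the ID genes, Id1 was higher (0.41) while Id2 (−0.58) and Id3 (−0.37) were lower.

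Control FFSS replicate 1 differed from the other 2 in many of these genes. Relative to the mean of the static libraries, Bambi differed by −0.03, −2.35 and −2.57 on the log2 CPM scale in replicates 1, 2 and 3, and Tgfb1 by 0.36, −0.63 and −0.38. For Id2 the differences were −0.59, −0.52 and −0.62, so this gene moved alike in all 3. Over the 46 members the median absolute difference was 0.20 in replicate 1, 0.38 in replicate 2 and 0.38 in replicate 3, and 1, 9 and 8 members differed by more than 1. In DKO cells the medians were 0.12, 0.14 and 0.09. The share of uniquely placed reads outside annotated genes was 5.10% to 5.21% in control static, 5.87%, 9.19% and 10.04% in control FFSS replicates 1 to 3, and in DKO cells 7.07% to 7.14% in static and 7.93% to 8.55% in FFSS libraries, and thus moved with the same libraries. With this share added to the model as a covariate, 14 members passed and 2 were called (Gdf15 and Fstl3), against 15.4% and 1.33% of all genes. Ltbp2 then had a log2 fold change of 0.52 and was no longer over 2-fold, and Acvrl1 (log2 fold change −0.67, edgeR adjusted p = 0.272) and Gdf5 (−0.34, edgeR adjusted p = 0.711) were not past the threshold. Summed osteoblast markers were 19840 CPM in the highest and 6458 CPM in the lowest control FFSS library, and their part in the response was not tested. Without replicate 1, 35 members passed, 14 higher and 21 lower, and 9 were called, while 55.0% of all genes passed and 11.3% were called. The 9 were Acvr2b, Acvrl1, Bambi, Bmp2, Bmp8a, Gdf15, Gdf5, Ltbp2 and Ltbp4, and Bambi then had a log2 fold change of −2.47 and Bmp8a of −1.79.

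**Figure D4:**
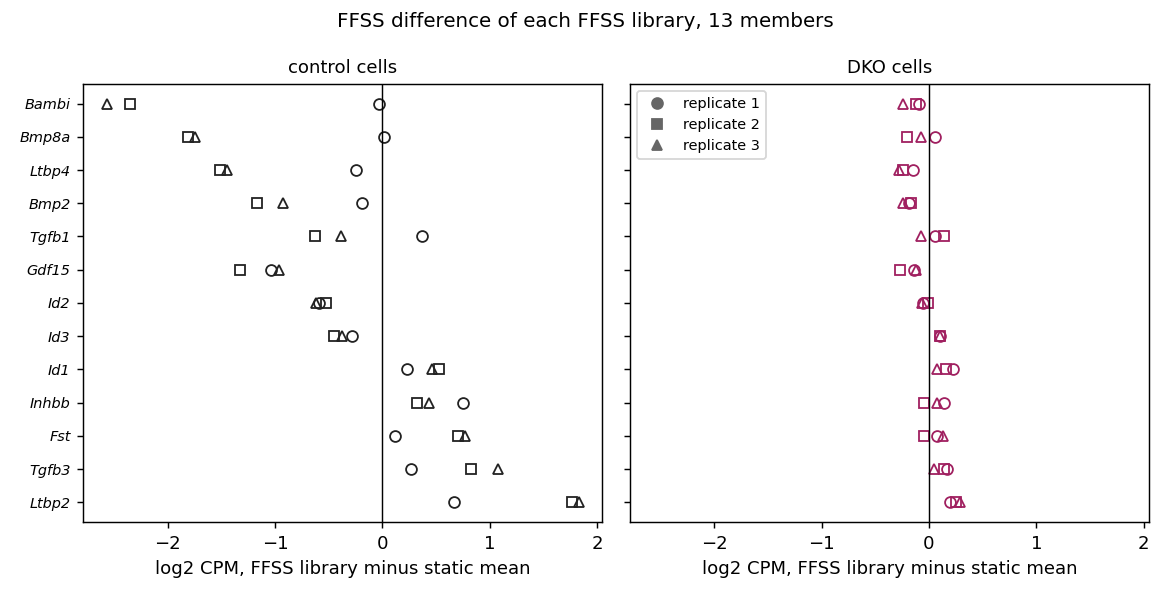
Difference of each FFSS library from the mean of the static libraries of its genotype (horizontal axis, log2 CPM) for 13 members, in control (left) and DKO (right) cells, with replicates 1, 2 and 3 as circle, square and triangle. In control cells replicate 1 of Bambi, Bmp8a and Ltbp4 lies near 0 and replicates 2 and 3 lie below −1.4, whereas Gdf15, Id2 and Id3 are below 0 in all 3; in DKO cells the points of these 13 members stay within 0.3 of 0.

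In DKO cells, 0 of the 46 members passed under FFSS with edgeR, while 0.376% of all genes were higher and 0.497% lower, and 0.0134% and 0.0738% were so by over 2-fold. At an unadjusted p under 0.05, edgeR gave 5 members (Acvr1, Bmp6, Gdf5, Gdf11 and Tgfb2), against 13.5% of all genes. Limma-voom also gave 0 and DESeq2 gave 1, Tgfb2, whose counts were 6426, 6428 and 6745 in static and 5300, 4941 and 4640 in FFSS libraries (edgeR log2 fold change −0.35, SE 0.08, adjusted p = 0.0597). The median log2 fold change of the members was −0.08 in DKO and −0.13 in control cells, and that of all genes −0.01 and 0.01. Bmp6, an iron-regulated BMP ligand, had 12, 18 and 8 counts in static and 5, 7 and 3 in FFSS libraries of DKO cells, a log2 fold change of −1.27 that did not pass (SE 0.46, edgeR adjusted p = 0.225). Fitted on the 6 DKO libraries alone, 8 members passed and 1, Gdf5, was called, against 11.9% and 0.282% of all genes. With the share of reads outside genes as a covariate, 12 members passed, against 9.95% of all genes.

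**Figure D5:**
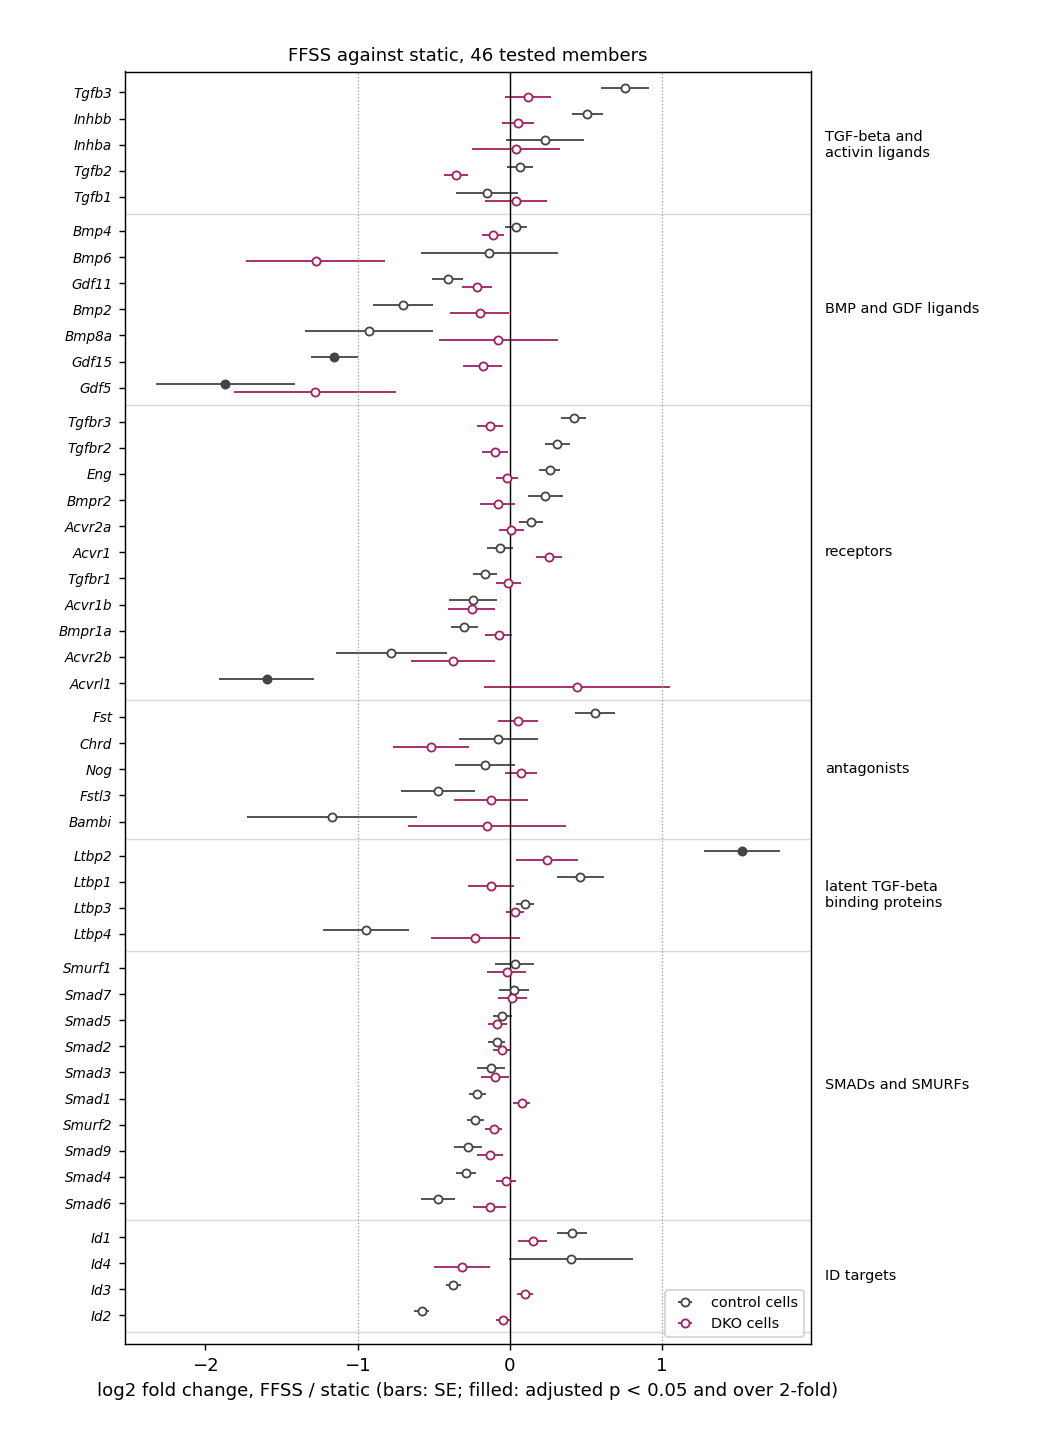
Log2 fold change between FFSS and static cells (horizontal axis) of the 46 tested members, grouped by role, in control (grey) and DKO (purple) cells. Points are edgeR estimates, bars are standard errors, and filled points passed an adjusted p of 0.05 with a change of over 2-fold; Ltbp2, Gdf15, Gdf5 and Acvrl1 are filled in control cells and no point is filled in DKO cells.

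Whether the FFSS response itself differed between genotypes was tested with the interaction, the effect in DKO cells minus that in control cells. It passed in the positive direction for 3 members and in the negative direction for 1 (edgeR, adjusted p under 0.05), where 2.28% and 1.68% of all genes did. The counts in the positive and negative direction were 3 and 4 by library totals alone, 4 and 5 with DESeq2, and 4 and 3 with the share of reads outside genes as a covariate, and 5.61%, 7.54% and 5.86% of all genes passed in these fits, against 3.97%. The 3 positive members were Gdf15 (0.97 ± 0.20, SE, adjusted p = 0.019 by edgeR), Id2 (0.53 ± 0.07, SE, adjusted p = 0.00111 by edgeR) and Id3 (0.47 ± 0.07, SE, adjusted p = 0.00428 by edgeR). Each of these fell under FFSS in all 3 control libraries, and the log2 fold changes in DKO cells were −0.18, −0.04 and 0.10. The negative member was Tgfbr3 (−0.55 ± 0.12, SE, adjusted p = 0.0221 by edgeR), which rose in control cells and had a log2 fold change of −0.13 in DKO cells. Id2 and Id3 passed whichever library was left out, whereas Gdf15 did not pass when any of 5 libraries was left out and Tgfbr3 when any of 8 was, with edgeR adjusted p up to 0.0581 and 0.0725.

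By over 2-fold, 0 members had an interaction with edgeR, against 0.376% higher and 0.275% lower over all genes. At an unadjusted p under 0.05 there were 2, Acvrl1 (2.04, SE 0.70) and Ltbp2 (−1.28, SE 0.32), against 4.33% of all genes, limma-voom gave 0 and DESeq2 gave 1, Ltbp2. Leaving out replicate 1 of control FFSS gave 31 members past the adjusted p and 7 called (Acvrl1, Bambi, Bmp8a, Gdf15, Gdf5, Ltbp2 and Ltbp4), where 37.6% of all genes passed and 7.60% were called. In that fit the interaction of Bambi was 2.32 and that of Bmp8a 1.72.

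Other genes of the same pathways were examined as lists. Of 28 tested among 42 further ligands, antagonists, proteases and co-regulators, 7 were higher and 8 lower in DKO static cells, near the share of all genes in either direction. The largest changes were in Inhbe, an activin subunit gene (log2 fold change 4.15 ± 0.60, SE; ratio of scaled counts 19.9, 95% exact interval 6.49 to 99.6), and Tll1, a BMP1-like protease gene (−3.61, SE 0.31). Inhbe had 2, 0 and 1 counts in the static control libraries against 23, 20 and 14 in the static DKO libraries. Tll1 had 37, 35 and 35 counts in static and 90, 72 and 94 in FFSS libraries of control cells, against 3, 2 and 3 and 4, 3 and 2 in those of DKO cells. It rose with FFSS in control cells (1.18 ± 0.18, SE), and neither its change in DKO cells (0.21 ± 0.50) nor its interaction passed. Antagonists outside the 54 members moved both ways, with Nbl1 (1.41, SE 0.06) higher and Bmper (−1.51, SE 0.16) lower. In control cells 7 of the 28 were higher and 5 lower under FFSS, against 17.7% and 18.1% of all genes.

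Among 14 known TGF-beta target genes, 8 were higher and 1 lower in DKO static cells (27.0% and 27.2% of all genes were), and 6 were higher and 4 lower under FFSS (27.0% and 29.6%). The matrix protease gene Mmp13 had 925, 1027 and 969 counts in the static control libraries against 4621, 5247 and 3833 in the static DKO libraries (log2 fold change 2.30, SE 0.13). The transcriptional repressor gene Bhlhe40 went the other way, with 13425, 13452 and 13417 counts in the static control libraries against 4184, 3730 and 4575 in the static DKO libraries (−1.62, SE 0.09). Bhlhe40 also fell with FFSS in control cells (−1.30, SE 0.09) and its interaction was 1.16 ± 0.13 (SE, adjusted p = 0.0004 by edgeR). In control cells 5 of the 14 were higher and 3 lower under FFSS, against 17.7% and 18.1% of all genes. The cytoskeletal gene Tagln rose from 1546, 1585 and 1478 to 1989, 7725 and 6267 counts (1.71, SE 0.38), where replicate 1 was again nearest to the static level.

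Of the BMP target genes, 9 of 11 gene IDs were tested, and 3 were higher in DKO static cells and 7 under FFSS, where 27.0% of all genes were higher in either condition. Hey1, a transcriptional repressor gene, had 53, 70 and 69 counts in static and 43, 25 and 34 in FFSS libraries of control cells, against 872, 825 and 873 and 643, 692 and 637 in those of DKO cells. Its groups were far apart, with log2 fold changes of 3.81 (SE 0.14) and 4.46 (SE 0.15). The homeobox gene Dlx2 was higher by 1.60 (SE 0.13) and 1.40 (SE 0.13). In control cells, 5 of the 9 were lower and 1 higher under FFSS, where 18.1% and 17.7% of all genes were. Sp7, which encodes the osteoblast factor osterix, went from 10343, 9873 and 10488 counts to 6259, 2000 and 2347 (−1.59, SE 0.38), and Dlx3 from 1421, 1276 and 1552 to 1054, 236 and 250 (−1.52, SE 0.50). For both, replicate 1 lay between the static libraries and the other FFSS libraries.

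Reads in stretches shared by genes were listed as ambiguous and not assigned, on opposite strands too since the counting was not stranded, and 13 of the 54 members share exon bases with another gene. For Bmp6, 6.58% of the exon bases are shared with Txndc5, a gene with 100068 counts over the 12 libraries against 102 for Bmp6. Gdf5 shares 40.3% of its exon bases with a gene model that had 0 counts, Bmp5 shares 46.7% with another that had 0, and Fstl3 shares 47.3% with Prss57, which had 8. Reads lost in this way would lower the listed level of a member in all groups.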

How the data were processed

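Total RNA of 12 Ocy454 samples was sequenced as short single-end reads. Per the methods, the authors aligned reads to mm9 with STAR and counted them per Ensembl gene with HTSeq, whose version differs between places. The deposited values are raw counts, neither normalised nor filtered, and counting was not stranded, which leaves out reads shared by overlapping genes. HTSeq summary lines (22.5% to 25.9% of the reads listed) stayed out of totals and tests. Symbols came from an mm9 annotation (37168 IDs, 98.9%). Libraries were grouped by title.

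Counts of all 12 libraries were fitted as 4 groups with edgeR 4.0.16 in R 4.3.3 (TMM, robust quasi-likelihood), after removal of genes at 0 counts in 2 or more libraries, which left 14904 of 24360 with any count. Calls required a Benjamini-Hochberg adjusted p under 0.05 and over 2-fold change, taken over all genes. CPM used TMM-scaled totals, with a prior count of 2 on the log2 scale, and RPKM used summed exon lengths. Reads without molecular identifiers are not independent molecules, so floors and intervals cover counting error only. No 2 replicates matched within sampling noise (chi-square per degree of freedom at least 2.02). Because the libraries share one spread and control FFSS varied most (biological coefficient of variation 0.193, others 0.0333 to 0.0451), calls are stricter in DKO cells than within that genotype alone. In contrasts with control FFSS they are looser. Fitted on the compared libraries alone, 47.1% of all genes passed between genotypes under FFSS, against 56.6%, and 33 members passed in both fits. For FFSS in control cells 16.5% passed, against 35.8%.

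Named in full are members called in any of 5 contrasts, with an interaction at an adjusted p under 0.05, or removed by the filter despite a group mean of 10 counts. Members and lists were chosen with earlier results of these data known. Alternatives were RLE factors, library totals, other filters, the compared libraries only, DESeq2 1.42.0, limma-voom 3.58.1, the replicate number as a block, the share of reads outside genes as a covariate, no fold limit and leaving out each library. The fits were also run on simulated data, and no result given here rests on those runs.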

Additional observations from a re-analysis of the deposited data

Results flagged for a closer look

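For 4 of the 46 tested members the effect of FFSS differed between genotypes by a test of the difference itself, the edgeR interaction with Benjamini-Hochberg adjustment over all genes. Of all genes, 3.97% passed this test. Id2 and Id3 passed whichever library was left out. Gdf15 did not pass when any of 5 libraries was left out, and Tgfbr3 when any of 8 was. The effect in DKO cells minus that in control cells was 0.97 (log2) for Gdf15, 0.53 for Id2, 0.47 for Id3 and −0.55 for Tgfbr3. For Gdf15, Id2 and Id3 the control libraries fell in all 3 replicates. Replicate 1 of control FFSS, which stood apart in many members, did not carry these results: without it the values were 1.01 for Gdf15, 0.53 for Id2, 0.51 for Id3 and −0.65 for Tgfbr3.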

How the results depend on the processing

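Of 39 results for single members (those called, and the interactions), 34 kept an adjusted p under 0.05 in each of the 20 or 21 alternatives run and 0 changed direction, leaving the 2-fold limit aside. The 5 that did not always keep it were Acvrl1 and Gdf5 under FFSS in control cells, Acvrl1 between genotypes under FFSS, and the interactions of Gdf15 and Tgfbr3, and the causes were not tested. For FFSS in control cells, the 4 members called became 7 with limma-voom, 2 with the share of reads outside genes as a covariate and 23 with no fold limit, and ranged from 4 to 9 when each library was left out, the 9 without control FFSS replicate 1. For FFSS in DKO cells the count of 0 became 1 with only the libraries compared and 1 with the covariate, and ranged from 0 to 1 when each library was left out. The share of all genes went from 0.0872% to 0.282% and 0.335%, and ranged from 0.0533% to 0.260% when each library was left out. For the interaction the count of 0 became 1 by library totals, 1 with DESeq2 and 4 with no fold limit, and ranged from 0 to 7 when each library was left out, with 1 without control static replicate 3, control FFSS replicate 3 or DKO FFSS replicate 2. In these fits 0.765%, 1.17% and 3.97% of all genes were counted, against 0.651%. Leaving out each library gave 0.280% to 7.60%. With no fold limit, 31 members passed between genotypes in static and 33 in FFSS cells, where 54.2% and 56.6% of all genes did. Library totals moved the median of all genes to −0.25 between genotypes under FFSS, and 13 members were then called in static cells (Smad6 lost) and 16 in FFSS cells (Id1 and Tgfb2 lost, Tgfbr2 gained). By library totals 15.2% and 18.3% of all genes were called. With the covariate 16 were called in static cells, against 16.8% of all genes. Ltbp4 was lost there (−0.58) and Bmp8a, Id2 and Tgfb1 were gained, and Ltbp2 was lost for FFSS in control cells (0.52). With the default filter of edgeR, 17 members in static and 19 in FFSS cells were called, where 16.9% and 18.7% of all genes were, including Grem1 and Gdf6, which that filter admits through the genotype where they are high. The replicate block gave 5, 0, 0, 14 and 17 members called in the 5 contrasts, in the order FFSS in control, FFSS in DKO, interaction, static and FFSS genotype differences. In the same order 5.92%, 0.0939%, 0.564%, 15.2% and 17.1% of all genes were called. Same-numbered libraries did not deviate together (correlations from −0.143 to 0.139). Gdf5, Acvrl1 and Acvr2b had at most 44 counts in any library, and the effect of depth on their calls was not tested.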
